A study of Micropterus salmoides with 6 samples.

Results

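The CCAAT/enhancer-binding proteins (C/EBP) are transcription factors with a basic region that contacts DNA and a leucine zipper through which they pair with each other and with related factors. In mammals cebpa is known for the terminal differentiation of liver cells, fat cells and granulocytes, while cebpb and cebpd are known as inducible genes of the acute phase, driven by cytokines, glucocorticoids and cAMP. The short family member cebpg lacks a strong activation domain and works mainly as a dimer partner. In rat intestinal epithelial cells, C/EBP factors are known to take part in the acute phase response to glucocorticoids and cytokines.

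The genes described here are those of the deposited gene table whose identifier begins with cebpa, cebpb, cebpd, cebpe or cebpg, or whose description names a C/EBP of those 5 classes. Of 35854 genes, 4 met this rule, namely cebpa, cebpb, cebpd and cebpg, 1 gene of each name. The rule itself uses names only, but the family was selected on the difference of cebpb between heat and control libraries in these data. Differences of the 4 genes between temperatures are therefore given as descriptions, and nothing is rested on them.

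Largemouth bass (Micropterus salmoides) is a freshwater fish, and total RNA of its intestine was sequenced. The heat group was held at 34 °C for 9 h and the control group stayed at 26 °C for the same time, with n = 3 libraries each. All fish were farm-bought, had been acclimated to 26 °C for 2 weeks and were fed commercial feed; strain, age and sex are not given in the sources used here. Each library was a pool of intestine from 3 fish of 1 rearing parallel, so the spread between libraries is a spread between pools and not between single fish.

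The shallowest library was heat replicate 1, with 8.24 M counts, and the deepest was control replicate 1, with 28.8 M counts. These 2 libraries stood apart. Annotated rRNA held 5.69% of counts in heat replicate 1 (95% Wilson interval 5.68% to 5.71%, counting error only), against 0.134% to 1.43% in the other 5 libraries. Control replicate 1 correlated with the other controls at r = 0.875 and 0.853 across log2 CPM of genes and lncRNAs, while those controls correlated with each other at 0.932. Intestinal identity was checked on 21 genes matched to 12 epithelial markers other than mucins, and all 21 had counts. Their summed level was 7452 to 8307 CPM in the heat libraries, against 25796 CPM in control replicate 1 and 7455 and 10693 CPM in the other controls.

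All 4 C/EBP genes were higher in every heat library than in any control library, with fold changes from 2.54 for cebpg to 7.49 for cebpb. Across the 20326 genes tested, 11.5% had heat libraries that lay wholly above the controls and 14.4% wholly below. In the fit across all genes (quasi-likelihood test of edgeR, p adjusted by Benjamini and Hochberg's method, threshold 0.05) 1 of the 4 genes, cebpb, passed as higher. The family was selected on this gene and this difference, so the call is a description and nothing is read from it. Of all genes 0.590% were called higher and 0.984% in either direction. DESeq2 called all 4 members, and 7.08% of genes. The count of members past the threshold was 4 without control replicate 1, where 8.71% of genes were called and 4.61% called higher. It was 0 when any other single library was left out, fits in which 0 to 10 genes in all were called. Levels below are in CPM (counts scaled to a common library size, with TMM factors) where libraries are compared within a gene, and in TPM (scaled for transcript length) where genes are compared with each other.

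The inducible member cebpb (NW_024040707.1, 9247849 to 9249380, plus strand) had 202, 432 and 255 CPM in heat replicates 1, 2 and 3, against 38.9, 33.1 and 46.7 CPM in control replicates 1, 2 and 3. Heat replicate 2 was the highest library, and the lowest heat library was still 4.32 times the highest control. The mean was 296 ± 120.3 CPM at 34 °C and 39.6 ± 6.83 CPM at 26 °C (SD, n = 3 each), a log2 fold change of 2.90 (SE 0.37). The gene lies inside LOC119905216, an annotated lncRNA on the same strand, which held 6, 31 and 17 counts in the heat libraries and 4, 4 and 12 counts in the controls. The smallest cebpb count in any library was 513, so reads assigned to that lncRNA were few beside it.

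The acute phase member cebpd (NW_024040485.1, 14322244 to 14323661, plus strand) had 249.8, 427 and 345 CPM in heat replicates 1, 2 and 3, against 120.3, 57.8 and 34.8 CPM in control replicates 1, 2 and 3. Its controls were spread more widely than those of the other 3 members, with control replicate 1 at the top. The mean was 341 ± 88.7 CPM at 34 °C and 71.0 ± 44.3 CPM at 26 °C (SD, n = 3 each), 4.80-fold higher (log2 fold change 2.26, SE 0.49). Without control replicate 1 the log2 fold change was 2.89, close to that of cebpb in the same fit, 2.90.

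The differentiation factor cebpa (NW_024044348.1, 2822844 to 2825935, minus strand) had 403, 602 and 583 CPM in heat replicates 1, 2 and 3, against 165, 171 and 147 CPM in control replicates 1, 2 and 3. The groups did not overlap, and its controls lay close together. The mean was 529 ± 109.9 CPM at 34 °C and 161 ± 12.9 CPM at 26 °C (SD, n = 3 each), 3.29-fold higher (log2 fold change 1.72, SE 0.31).

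The dimer partner cebpg (NW_024044348.1, 2833428 to 2838048, plus strand) had 197, 206 and 144 CPM in heat replicates 1, 2 and 3, against 90.4, 67.0 and 57.6 CPM in control replicates 1, 2 and 3. Its distance between groups was the smallest of the 4, the lowest heat library being 1.59 times the highest control. The mean was 182 ± 33.5 CPM at 34 °C and 71.6 ± 16.9 CPM at 26 °C (SD, n = 3 each), 2.54-fold higher (log2 fold change 1.35, SE 0.29). Heat replicate 1, the lowest heat library for the other 3 members, was not the lowest for cebpg. For cebpa, cebpb and cebpd the heat library of greatest rRNA share was thus the one nearest to the controls, and the part of rRNA in this was not tested.

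**Figure D1:**
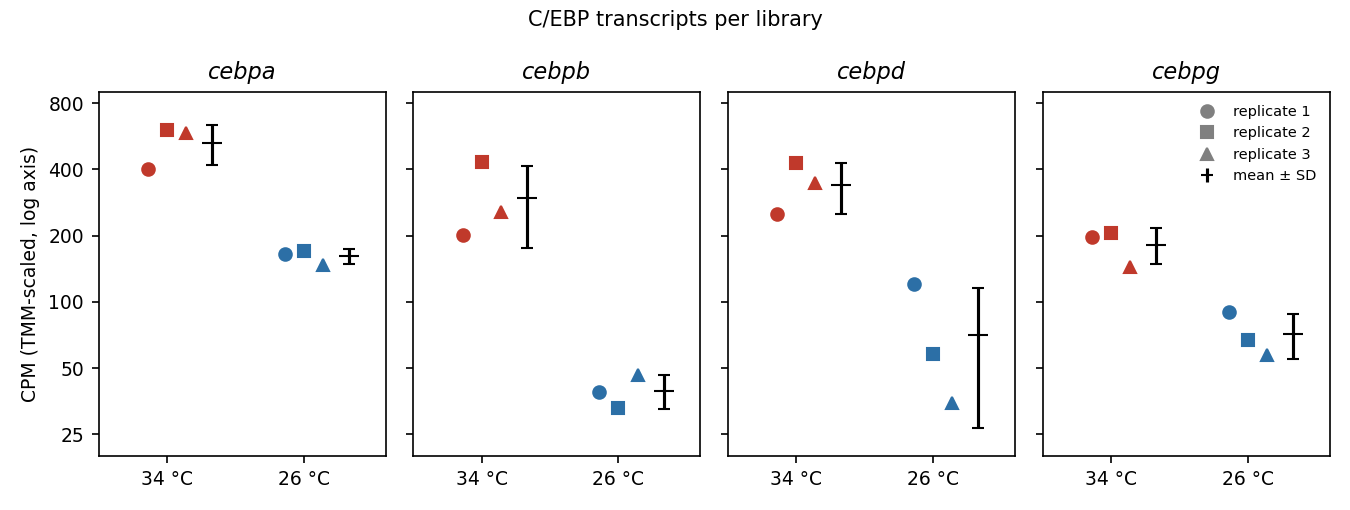
Levels of the 4 C/EBP genes per library, in CPM on a log axis, for the 34 °C and the 26 °C groups. Symbols mark replicate numbers and black bars the mean ± SD of 3 libraries. Every 34 °C library lies above every 26 °C library, with the widest gap for cebpb and the narrowest for cebpg.

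By fold change the order was cebpb, cebpd, cebpa and cebpg in all 14 fits. The plot of fold changes by fit sets the 4 members side by side under 13 other settings. With 1 library left out, log2 fold changes ran from 2.53 to 3.13 for cebpb, 1.97 to 2.89 for cebpd, 1.61 to 1.90 for cebpa and 1.24 to 1.56 for cebpg.

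**Figure D2:**
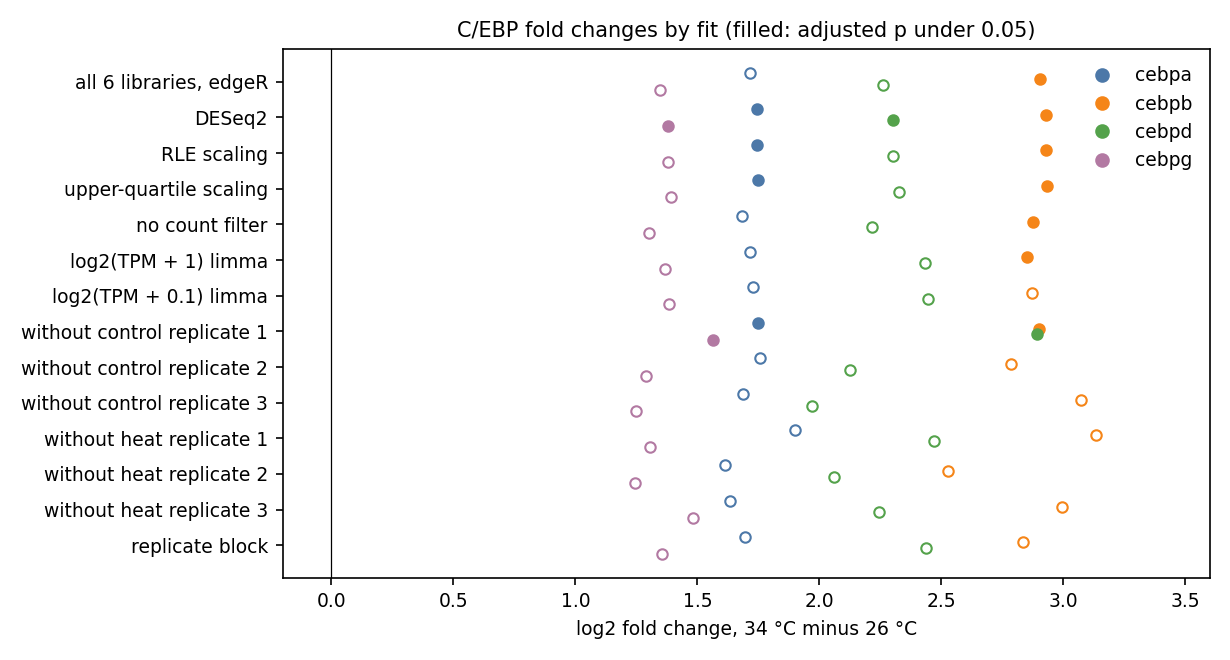
Log2 fold change of each C/EBP gene (34 °C minus 26 °C) in the fit of all 6 libraries and in 13 alternatives. Filled points had an adjusted p under 0.05 over all genes and open points did not. All values lie above 1, while the number of filled points changes from 0 to 4 between fits.

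Per transcript length, the family as a whole held 764, 1938 and 1513 TPM in heat replicates 1, 2 and 3, against 313, 330 and 244.5 TPM in control replicates 1, 2 and 3. The mean sum was 1405 ± 594 TPM at 34 °C and 296 ± 45.3 TPM at 26 °C (SD, n = 3 each), a ratio of 4.75. These TPM carry no TMM factors, so the ratio and the order of libraries also hold differences in scale between libraries. For example, cebpa had 197 TPM at 403 CPM in heat replicate 1, and 445 TPM at 602 CPM in heat replicate 2. The heat libraries did not overlap with the controls, and heat replicate 1 was the lowest of them.

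On the TPM scale cebpd was the most abundant member in all 3 heat libraries, at 267, 689 and 569 TPM. In the controls the top member was cebpd in replicate 1 (137 TPM) and cebpa in replicates 2 and 3 (130 and 95.0 TPM). At 34 °C cebpd averaged 508 ± 217, cebpb 411 ± 223 and cebpa 361 ± 142 TPM (SD, n = 3). Members were read in the same libraries, so these SDs do not measure the spread of the differences between members. Within heat replicates 1, 2 and 3 cebpd was 1.34, 1.07 and 1.46 times cebpb, while cebpa was 0.989, 0.691 and 1.13 times cebpb. At 34 °C cebpg was the least abundant in each library, with a mean of 126 ± 30.9 TPM. At 26 °C cebpb and cebpg were close, at 50.9 ± 10.1 and 47.5 ± 7.38 TPM, and cebpa and cebpd averaged 104 ± 23.2 and 93.8 ± 43.9 TPM.

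The share of family TPM held by cebpb was 26.1%, 33.2% and 25.7% in heat replicates 1, 2 and 3, against 13.1%, 15.3% and 24.996% in control replicates 1, 2 and 3. The groups came within 1 percentage point of each other, at heat replicate 3 and control replicate 3. The share of cebpg was 13.3%, 8.28% and 7.57% in the heat libraries, against 15.9%, 16.2% and 16.1% in the controls, which did not overlap. For cebpa the share was 25.9% ± 3.08 at 34 °C and 35.2% ± 6.74 at 26 °C (SD, n = 3 each), and the groups overlapped because control replicate 1 was at 27.5%. The cebpd share varied most among controls, from 20.1% to 43.6%, and lay between 34.9% and 37.6% in the heat libraries.

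The ratio of cebpa to cebpb in TPM was 0.989, 0.691 and 1.13 in heat replicates 1, 2 and 3, against 2.103, 2.57 and 1.55 in control replicates 1, 2 and 3. Since the family was selected on the heat difference of cebpb, this ratio and the cebpb share above restate that choice and are descriptions only. The same limit holds for the family sum and for the shares of cebpa, cebpd and cebpg, since cebpb is part of the sum. A rise of cebpb lowers those shares by itself.

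**Figure D3:**
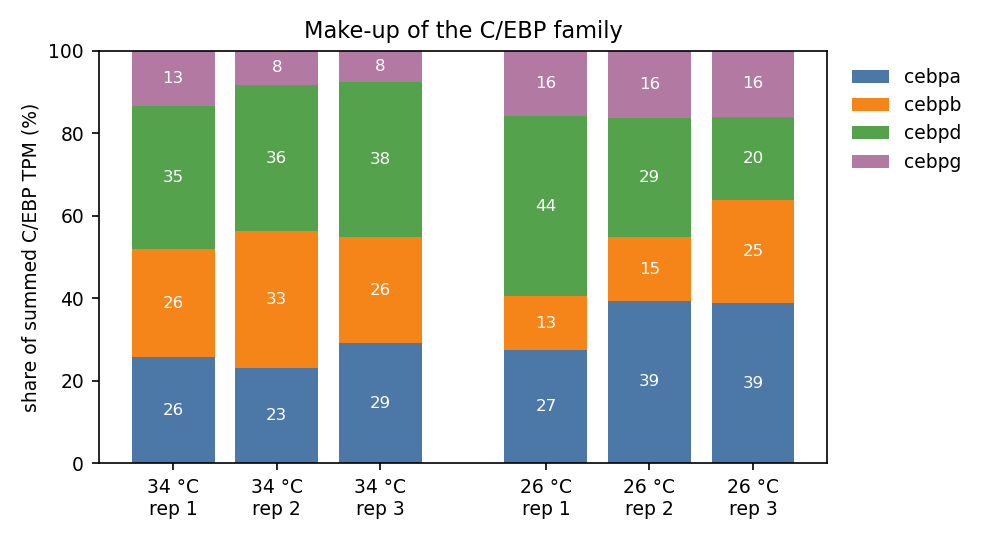
Share of the summed C/EBP TPM held by each member in each library (percent, bars add up to 100). The cebpg share is 7.57% to 13.3% at 34 °C and 15.9% to 16.2% at 26 °C, and the cebpb share is lowest in control replicates 1 and 2. All shares depend on cebpb, on whose difference the family was selected.

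The genes cebpa and cebpg share a locus, as neighbours in head-to-head orientation, 7492 bp apart. Their patterns over the 6 libraries were the most alike of the 6 member pairs, with a root mean square difference of 0.37 log2 units after centring each gene on its mean. The other pairs differed by 0.60 to 0.85, the largest value being that of cebpb and cebpg. The measure includes the difference between groups, and cebpa and cebpg are the 2 members with the smallest fold changes.

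Of the other 6 genes that lie next to a member, 5 were tested and 0 passed by edgeR's test. All 5 genes next to a member that had enough counts are protein coding, and the other, the lncRNA LOC119890707 beside cebpa, had 0 counts in all libraries. The neighbour nearest to a member was spidr (NW_024040485.1, 14323767 to 14358848, minus strand), a gene of homologous recombination, whose 3' end lies 105 bp beyond that of cebpd. It had 128, 157 and 70.7 CPM in heat replicates 1, 2 and 3, against 15.6, 34.4 and 26.2 CPM in control replicates 1, 2 and 3. All heat libraries of spidr lay above all controls, by 4.68-fold on average (log2 fold change 2.23, SE 0.41), with an adjusted p of 0.0534 in edgeR. The sources used here give no strand setting for the counting, so reads of these converging genes that run past an end cannot be told apart.

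On the other side of cebpd, 2684 bp away, the replication helicase gene mcm4 had 12.4 ± 1.96 CPM at 34 °C and 18.0 ± 10.5 CPM at 26 °C (SD, n = 3 each), and the groups overlapped. Beside cebpb, the plasmalogen enzyme gene peds1 had log2 fold change 0.93 (SE 0.49) and the phosphatase gene LOC119905212 had 0.10 (SE 0.31). The formin gene fhod1 beyond cebpg had 0.71 (SE 0.57). Of the 5, spidr alone had an unadjusted p under 0.05, as did 16.6% of all genes. Without control replicate 1, spidr (edgeR adjusted p = 0.0248) and peds1 (0.0138) passed, and DESeq2 called spidr only. These fits called 8.71% and 7.08% of all genes.

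Within 100 kb of a member the lncRNA table held 3 transcripts, all in the cebpa and cebpg region, and 0 passed by edgeR's test. The transcript that could be tested was MSTRG.34315.1, which lies 16952 bp beyond the end of cebpg. It had 31, 233 and 13 counts in heat replicates 1, 2 and 3, against 0, 2 and 3 counts in control replicates 1, 2 and 3. Most heat counts thus came from heat replicate 2 (edgeR adjusted p = 0.113 over the lncRNAs; unadjusted p = 0.00227), and DESeq2 called it, as it called 7.30% of the lncRNA transcripts it tested. Of the 1734 lncRNA transcripts tested 0 passed by edgeR's test and 251 had an unadjusted p under 0.05. The other transcripts had 17 counts over 6 libraries (MSTRG.34311.1) and 0 counts (MSTRG.34297.1).

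Genes that act on C/EBP proteins, or pair with them, were measured as a list of 18 tested genes of 19 matched, of which 0 passed by edgeR's test, 7 had an unadjusted p under 0.05 (16.6% of all genes did) and 3 were called by DESeq2 (7.08% of all genes). The median log2 fold change was 0.29, against -0.12 over all genes tested, with 10 genes above 0 and 8 below. Groups did not overlap for 6 genes that were higher and 2 that were lower, against 11.5% and 14.4% of all genes.

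The pseudokinase gene trib1, whose product marks C/EBP alpha for degradation in mammals, had 29.5, 26.3 and 18.3 CPM in heat replicates 1, 2 and 3, against 11.2, 7.74 and 9.06 CPM in control replicates 1, 2 and 3. The groups did not overlap, and the 2.64-fold difference (log2 fold change 1.40, SE 0.30) had an adjusted p of 0.0742 in edgeR. Its copy LOC119900185 lay at 38.4 ± 7.10 CPM at 34 °C and 17.8 ± 6.27 CPM at 26 °C (SD, n = 3 each, edgeR adjusted p = 0.148). The related trib3, chosen after its values were seen, was at 133 ± 52.1 and 44.4 ± 25.8 CPM in the heat and control groups. Without control replicate 1, trib1, LOC119900185 and trib3 passed as higher (log2 fold changes 1.57, 1.41 and 2.17), and the RNA-binding protein gene celf1 passed as lower (-0.81). In that fit 8.71% of all genes were called and 4.61% called higher. With all libraries, the tribbles relative trib2 had a log2 fold change of -0.05 (SE 0.44).

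Of the bZIP partners, ddit3, which encodes the stress-induced C/EBP inhibitor CHOP, had 83.9, 87.7 and 55.2 CPM in heat replicates 1, 2 and 3, against 41.0, 38.9 and 65.5 CPM in control replicates 1, 2 and 3. The groups overlapped, control replicate 3 lying above heat replicate 3 (edgeR adjusted p = 0.351). The integrated stress response factor atf4a was at 377 ± 5.84 CPM at 34 °C and 387 ± 180.0 CPM at 26 °C (SD, n = 3 each). Its copy atf4b was at 212 ± 41.6 and 131 ± 3.80 CPM in the heat and control groups, without overlap (edgeR adjusted p = 0.254). The stress factor atf3, chosen after its values were seen, had log2 fold change -0.98 (SE 0.30) and did not pass. The myeloid partner spi1b (PU.1) was at 34.2 ± 4.80 CPM at 34 °C and 52.5 ± 4.85 CPM at 26 °C (SD, n = 3 each, edgeR adjusted p = 0.227). The nucleolar protein gene cebpz, which carries the name but is not a bZIP factor, had log2 fold change 0.48 (SE 0.24).

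Genes of the signal routes known in mammals to induce cebpb or cebpd, inhibitors of those routes included, gave 28 tested of 29 matched. Of these, 2 rose and 0 fell, against 0.590% and 0.394% of all genes. The list's median log2 fold change was -0.03, with 13 genes above 0 and 15 below. Both genes that rose are copies of the cAMP-responsive element modulator. The gene crema had 56.9, 62.7 and 39.4 CPM in heat replicates 1, 2 and 3, against 20.3, 13.8 and 14.3 CPM in control replicates 1, 2 and 3. That was 3.28-fold higher without overlap (log2 fold change 1.71, SE 0.29), with an adjusted p of 0.0446 in edgeR. The copy LOC119906714 was at 10.5 ± 4.94 CPM at 34 °C and 1.26 ± 0.576 CPM at 26 °C (SD, n = 3 each; 8.22-fold, edgeR adjusted p = 0.0478). Both calls were kept without control replicate 1 and lost when any other single library was left out, with adjusted p up to 0.269 and 0.261. Those other fits called 0 to 10 genes in all, against 200 with all libraries. Without control replicate 1 the list had 2 calls as higher and 2 as lower, where 8.71% of all genes were called. Those lower were the inhibitor gene socs1a (log2 fold change -1.08) and the coactivator gene crtc3 (-1.18).

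Genes of the interleukin-6 and STAT3 route did not pass in edgeR with all libraries. The cytokine gene itself, the interleukin-6-like LOC119903250, had 0 counts in all 6 libraries, where 3 counts would have been 0.129 to 0.390 CPM. The shared receptor gene il6st was at 148 ± 24.1 CPM at 34 °C and 114 ± 34.3 CPM at 26 °C (SD, n = 3 each), and stat3 at 209.6 ± 62.0 and 161 ± 41.8 CPM. The feedback inhibitor copy socs3a had 27.5, 98.1 and 46.0 CPM in heat replicates 1, 2 and 3, against 8.84, 18.4 and 8.73 CPM in control replicates 1, 2 and 3. Like cebpb it was highest in heat replicate 2 and did not overlap between groups (log2 fold change 2.26, SE 0.53), with an adjusted p of 0.0920 in edgeR, and DESeq2 called it. The copy socs3b had a log2 fold change of -0.30 (SE 0.32). The related inhibitor genes socs1a and LOC119898768 (suppressor of cytokine signaling 1-like), chosen after their values were seen, differed by -1.38 (SE 0.31) and -1.52 (SE 0.43) on the log2 scale, without overlap. DESeq2 called both as lower, as it called 3.69% of all genes. The gene socs1a also passed as lower without control replicate 1 (-1.08), where 8.71% of all genes were called. The glucocorticoid receptor genes nr3c1 and LOC119881861 differed by -0.23 (SE 0.25) and 0.02 (SE 0.29) on the log2 scale.

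Genes described as C/EBP targets in mammals gave 32 tested of 63 matched, of which 3 rose and 0 fell, against 0.590% and 0.394% of all genes. The median log2 fold change of the 32 was -0.26, against -0.12 over all genes tested, with 14 above 0 and 18 below. Those past the threshold were the gluconeogenic enzyme gene pck1 and the chemokine genes ccl20b and LOC119883985, which may share reads. The enzyme gene pck1 had 677, 733 and 596 CPM in heat replicates 1, 2 and 3, against 110.5, 104.9 and 39.4 CPM in control replicates 1, 2 and 3 (edgeR adjusted p = 0.0358). Unlike cebpb it varied little among heat libraries. The chemokine gene ccl20b was at 4.99 ± 1.67 CPM at 34 °C and 0.396 ± 0.181 CPM at 26 °C (SD, n = 3 each, edgeR adjusted p = 0.0331). These 3 calls were also kept without control replicate 1 and lost without any other single library, where 0 to 10 genes in all were called. In the fit without control replicate 1 the list had 3 calls as higher and 3 as lower, where 8.71% of all genes were called.

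Other target genes are known from liver, fat and granulocytes. The serum amyloid gene saa, the tyrosine aminotransferase gene tat and the 3 hepcidin-like genes had 0 counts in all libraries. The fat cell regulator pparg was at 92.5 CPM in the heat group and 149 CPM in the control group on average, without overlap (log2 fold change -0.69, SE 0.24). The insulin receptor gene insra had -1.14 (SE 0.36) and the lipase gene lpl -1.28 (SE 0.31), and none of these 3 passed in edgeR with all libraries. DESeq2 called lpl and the insulin receptor-like gene LOC119900689 (-0.75) as lower, and did not call insra. Without control replicate 1, lpl, insra and the glycogen synthase gene gys2 passed as lower (-0.93, -1.39 and -2.77). A second lipoprotein lipase gene, LOC119900751, had 0.49 (SE 0.31), was higher in all heat libraries and was not called. The granulocyte receptor gene csf3r, a known C/EBP alpha target, was at 10.3 ± 2.25 CPM at 34 °C and 12.6 ± 3.41 CPM at 26 °C (SD, n = 3 each). On the other side, the binding protein gene igfbp1a had a log2 fold change of 2.08 (SE 0.45), the complement C3-like genes LOC119887216 and LOC119899479 had 2.44 (SE 0.58) and 1.63 (SE 0.46), and the growth arrest gene gadd45ab had 1.57 (SE 0.38). Groups did not overlap for these 4 genes, none passed in edgeR with all libraries, and DESeq2 called all 4 as higher. Other copies did not go with them: in DESeq2 the C3-like gene LOC119899478 had -1.28 and gadd45aa had -0.02, and neither was called. All genes of this paragraph except csf3r were chosen after their values were seen. DESeq2 called 7 targets as higher and 2 as lower, against 3.39% and 3.69% of all genes.

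**Figure D4:**
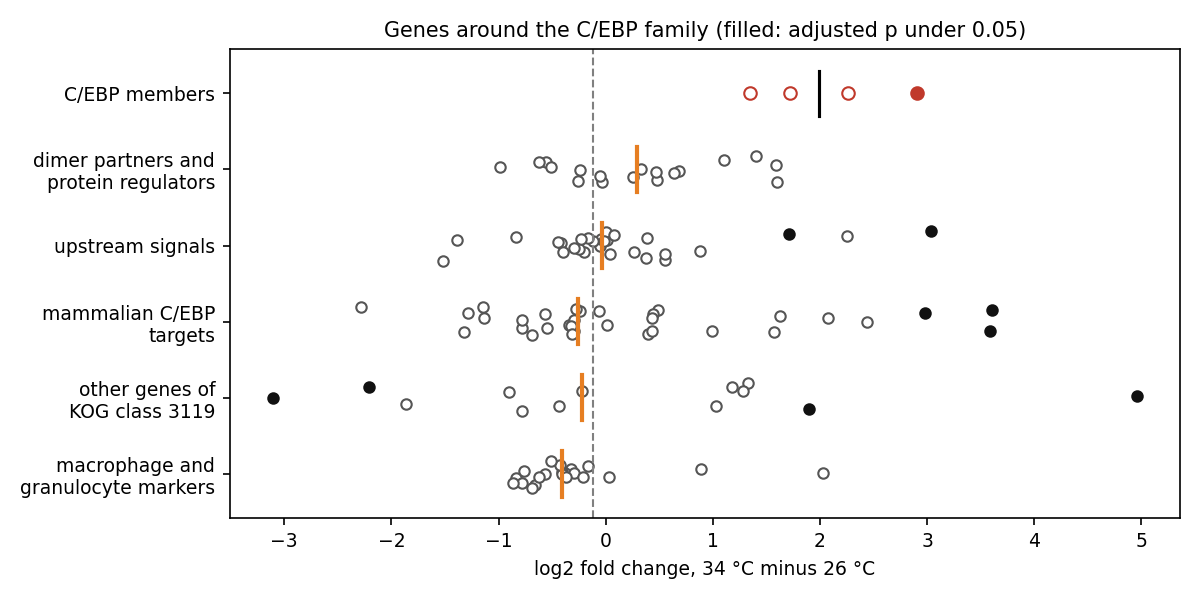
Log2 fold change (34 °C minus 26 °C) of tested genes in the C/EBP family and in 5 related lists; vertical spread within a list is for legibility only. Filled points had an adjusted p under 0.05, short bars are list medians and the dashed line is the median of all genes, -0.12. The 4 members lie at 1.35 to 2.90, while list medians lie between -0.41 and 0.29.

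The annotation places the 4 members in the orthologous class of basic region leucine zipper factors (KOG3119), which holds 16 other genes, a group formed after the files were read. Of 13 tested, 2 rose and 2 fell, against 0.590% and 0.394% of all genes. The repressor gene nfil3-5 and LOC119915638, which has no description, were 31.0-fold and 3.74-fold higher (edgeR adjusted p = 0.00811 and 0.0325), and the D-box activator genes dbpa and dbpb were 8.61-fold and 4.62-fold lower (0.0259 and 0.0446). The median log2 fold change of the class was -0.23. An unadjusted p under 0.05 in edgeR was found for 10 of the 13, against 16.6% of all genes. Groups did not overlap for 5 that were higher and 4 that were lower, against 11.5% and 14.4% of all genes. DESeq2 called 4 as higher and 3 as lower, against 3.39% and 3.69% of all genes. Without control replicate 1 these 4 calls were kept, and nfil3-5 kept its call without control replicate 3 and without heat replicate 1 as well (adjusted p = 0.0160 and 0.0424). The calls of LOC119915638, dbpa and dbpb were lost when any other single library was left out, fits in which 0 to 10 genes in all were called. A further gene of the class, cebp1, carries a C/EBP name outside the 5 classes and had at most 0.952 CPM in any library.

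Because C/EBP genes are strongly expressed in myeloid cells, fat cells and liver, markers of these and of exocrine pancreas were read beside the members. In bulk tissue, fewer cells of a type and less RNA per cell cannot be told apart. Macrophage and granulocyte markers (35 matched, 21 tested) gave 0 calls in edgeR, 1 in DESeq2 and 5 at an unadjusted p under 0.05. Over all genes DESeq2 called 7.08%, and 16.6% had an unadjusted p under 0.05 in edgeR. The median log2 fold change of the list was -0.41, with 3 genes above 0 and 18 below. Their summed level was 459 to 477 CPM in the heat libraries, against 587 to 728 CPM in the controls. The DESeq2 call was mmp9, a matrix metalloprotease gene that is also expressed outside myeloid cells, which was at 5.72 ± 1.40 CPM at 34 °C and 1.40 ± 0.0979 CPM at 26 °C (SD, n = 3 each, log2 fold change 2.03, SE 0.38, edgeR adjusted p = 0.0555). It was the 1 tested marker of the list whose heat libraries all lay above the controls, while 6 lay below, against 11.5% and 14.4% of all genes. Of the 35 genes 14 had 0 counts in all libraries, 10 of them copies of collagenase 3-like genes. The macrophage gene copy LOC119891768 (mpeg1-like) was at 16.3 ± 3.19 CPM at 34 °C and 20.4 ± 19.4 CPM at 26 °C (SD, n = 3 each).

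Fat cell markers (9 matched) summed to 235.5 to 265.5 CPM in the heat libraries, against 270.5 to 306 CPM in the controls, with fabp4b and lepb at 0. The widest gap in CPM was that of pparg, at 92.5 CPM at 34 °C and 149 CPM at 26 °C on average. It was wider than the gap between the mean sums, so the lower heat sum rested on pparg and does not describe the whole list. Of the 7 tested fat cell markers 3 were higher and 4 lower, with a median log2 fold change of -0.03. The lipid droplet gene cidec of that list, chosen after its values were seen, was at 37.4 ± 5.20 CPM at 34 °C and 11.7 ± 4.13 CPM at 26 °C (SD, n = 3 each), without overlap (log2 fold change 1.67, SE 0.31, edgeR adjusted p = 0.0544), while lpl and pparg were lower in all heat libraries. Liver markers (12 matched) summed to 58.7 to 152 CPM in the heat libraries, against 36.6 to 122.8 CPM in the controls. Of these, tat and itih2 were at 0 and the plasma protein genes fgb and tfa averaged at most 0.65 CPM in either group. The 5 liver markers with enough counts to be tested were f2, fga, LOC119899339 (beta-2-glycoprotein 1-like) and the cps1 genes cps1 and LOC119884050. Their log2 fold changes were above 0 for 3 and below 0 for 2. Pancreas markers (14 matched) summed to 140 to 253 CPM in the heat libraries, against 124 to 315 CPM in the controls, with 3 genes at 0. None of the 7, 5 and 10 tested fat, liver and pancreas markers passed in edgeR. An unadjusted p under 0.05 was found for 3, 0 and 0 of them, against 16.6% of all genes. DESeq2 called 2, 0 and 0 (cidec as higher and lpl as lower), against 7.08% of all genes. The 27 tested epithelial markers had a median log2 fold change of -0.49 with all libraries, with 5 above 0 and 22 below. Groups did not overlap for 2 that were higher and 8 that were lower, against 11.5% and 14.4% of all genes. Of these 27, 1 rose, against 0.590% of all genes. It was the cadherin-1-like LOC119905873 (4.39-fold, edgeR adjusted p = 0.0480, kept without control replicate 1 and lost without any other single library). The fits that lost it called 0 to 10 genes in all. The fatty acid-binding protein gene fabp2 was at 275 ± 82.9 CPM at 34 °C and 398 ± 434 CPM at 26 °C (SD, n = 3 each). Without control replicate 1, 7 epithelial (3 higher and 4 lower), 1 macrophage and granulocyte (higher) and 2 fat cell markers (1 higher and 1 lower) passed. Over all genes 8.71% passed in that fit. DESeq2 called 8 epithelial markers, 1 as higher and 7 as lower, against 3.39% and 3.69% of all genes. Among those lower were the sucrase-isomaltase gene si and the aminopeptidase gene anpepa, both chosen after their values were seen. Their log2 fold changes in edgeR were -1.75 (SE 0.55) and -1.46 (SE 0.42), and without control replicate 1 they were -1.11 and -0.99. By contrast, fabp2 and its copy LOC119911470 changed sign without that library, from -0.53 and -0.23 to 0.91 and 1.56. Directions in the epithelial list thus depended in part on control replicate 1, whose marker sum was the highest. The part of cell make-up in the C/EBP values was not tested.

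The genes whose pattern lay nearest to that of cebpb, by root mean square difference of centred log2 CPM over the 6 libraries, were prelid3b (0.27), htra3b (0.33), samhd1 (0.34), srsf3a (0.37) and LOC119917631 (0.39), out of 14122 genes. They encode a PRELI-domain protein of mitochondrial lipid transfer, a serine protease, a nucleotide hydrolase, a splicing factor and a monocarboxylate transporter 12-B-like protein. All 5 were highest in heat replicate 2, as cebpb was. They were chosen by likeness to cebpb over these same libraries, so the shared peak is largely built in. The likeness includes the difference between groups, on which cebpb was known to stand out, and says nothing of shared control.

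**Figure D5:**
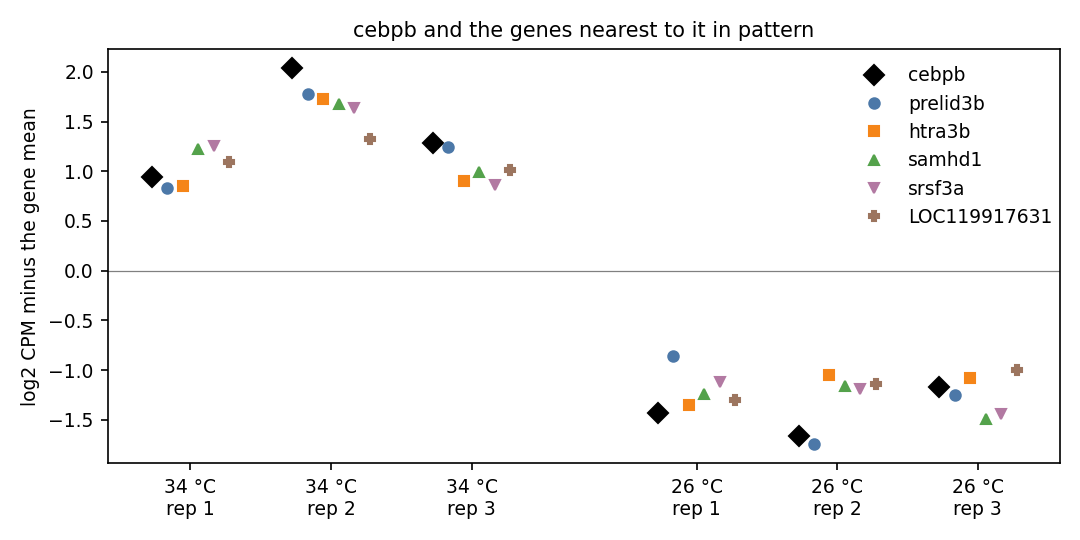
Log2 CPM minus the gene's own mean in each library, for cebpb (black diamonds) and the 5 genes nearest to it in pattern. At 34 °C every gene lies above its mean and is highest in replicate 2, where cebpb is 2.04 log2 units above its mean. The 5 genes were chosen by likeness to cebpb over these libraries, so the shared peak is largely built in.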

How the data were processed

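The authors deposited whole-number counts and TPM for each gene and lncRNA transcript, as read from the file headers. Tools listed in the submitters' processing notes, with no roles, are DESeq, StringTie 1.3.3 and HISAT2 2.1.0; the genome build and strand setting are not given in the sources used here. Of 38342 gene rows, 2488 assembled genes whose counts equal those of the lncRNA table were left out. Counts were tested with edgeR 4.0.16 in R 4.3.3 (filterByExpr with minimum count 10 and minimum total 15, TMM, quasi-likelihood F test, no replicate term). Genes and lncRNA transcripts were fitted together and p was adjusted within each class (threshold 0.05). SE came from the F statistic. The test was also run on simulated counts with a common dispersion for all genes and no deviating library. That check cannot speak to the effect of control replicate 1. Alternatives were upper-quartile or RLE scaling, DESeq2 1.42.0, no filter, limma 3.58.1 on log2(TPM + 1) and log2(TPM + 0.1) where the mean was 0.5 TPM or more, each library left out, and a replicate block. Same-numbered libraries deviated together at r = -0.01, -0.01 and 0.04, so numbers were not taken as pairs.

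The members and lists were chosen with earlier results of these data known. Lists went by symbol or product description, and 33187 genes matched RefSeq assembly ASM1485139v1, used for biotypes. Named genes were all members, neighbours and near lncRNAs, up to 5 per list and direction past the threshold, a fixed set of regulators and markers (at most 2 copies; vil1 matched no gene), and the 5 genes most like cebpb.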

Additional observations from a re-analysis of the deposited data

How the results depend on the processing

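The 4 members kept a positive log2 fold change in all 13 alternatives, but calls depended on the fit. Every heat library lay above every control for each member, so these settings could hardly change the sign. The family was also selected on the cebpb difference, so the kept signs are descriptions only. The count of members past the threshold (1 with all libraries) was 4 with DESeq2, 2 with RLE and with upper-quartile scaling, 0 with log2(TPM + 0.1) and 0 with the replicate block, and 0 to 4 with 1 library left out. Over all genes DESeq2 called 7.08%. RLE and upper-quartile scaling called 205 and 207 genes, against 200 in the main fit, and log2(TPM + 0.1) called 30. Log2 fold changes that crossed the threshold were, in DESeq2, 1.75 (cebpa), 2.30 (cebpd) and 1.38 (cebpg); for cebpa 1.75 with RLE and 1.75 with upper quartiles; and for cebpb 2.87 with log2(TPM + 0.1) and 2.84 with the replicate block, which lost it. With 1 library left out they ran from 1.61 to 1.90 for cebpa, 2.53 to 3.13 for cebpb, 1.97 to 2.89 for cebpd and 1.24 to 1.56 for cebpg. The replicate block called 0 of 20326 genes, and the numbers share no source in the labels. Of the 6 libraries, 2 correlated best with the library of their own number in the other group, by deviations from the group means.

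List counts, taken in either direction, moved likewise. Partners and regulators (0) gave 3 with DESeq2 and 0 to 4 with 1 library left out. Upstream signals (2) gave 5 with DESeq2, 1 without the filter, 0 on either TPM scale and with the replicate block, and 0 to 4 with 1 library left out. Targets (3) gave 9 with DESeq2, 0 with log2(TPM + 0.1) and with the replicate block, and 0 to 6. Other KOG3119 genes (4) gave 7 with DESeq2, 1 on either TPM scale, 0 with the replicate block, and 0 to 6. Neighbours (0) gave 1 with DESeq2 and 0 to 2; near lncRNAs (0) gave 1 with DESeq2 and 0 within 20 kb. The highest of each such range was without control replicate 1, where 8.71% of all genes were called. Fits without any other single library called 0 to 10 genes in all. DESeq2 called 7.08% of all genes and 7.30% of the lncRNA transcripts it tested, and the fit without the filter called 192 genes. The causes were not tested.

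Over all genes 200 were called, 1437 with DESeq2, 74 with log2(TPM + 1) (55 higher and 19 lower, against 120 and 80) and 30 with log2(TPM + 0.1). Without control replicate 1 the number was 1825, and without any other single library it was 0 to 10. Calls of single genes were thus lost in fits that called almost no gene. Shares of family counts, which favour longer transcripts, were 39.4% and 47.7% for cebpa at 34 °C and 26 °C, 21.4% for cebpb and 25.1% for cebpd at 34 °C, and 13.98% and 20.8% for cebpg at 34 °C and 26 °C.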
